A study of Mus musculus with 6 samples.

Results

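The membrane-bound mucins measured here are Muc1, Muc3, Muc4, Muc13, Muc15 and Muc20, which were taken as a family by name from the gene symbols of the array platform. These 6 genes, of 18193 named genes in all, were read by 10 probe sets that carry the symbol of 1 member and no other gene. A probe set is a group of short array oligonucleotides against 1 transcript, and each gene was represented by its probe set with the highest mean over the arrays. The arrays held whole-tissue RNA from the proximal colon of 3 Hnf4α mutant mice and 3 control littermates, all 1 year of age, kept pathogen free and given ketamine and xylazine before sacrifice. The mutants carry loxP-flanked Hnf4α alleles and a Cre recombinase under the 12.4 Kb Villin promoter, which is active in the intestinal epithelium, while the labels call the controls wildtype. Whether the controls carried loxP alleles is not given in the sources used here. The study describes severe crypt distortion with inflammation of the colon in mutants of this age. Disease and genotype therefore cannot be told apart in these arrays. Signals are log2 values after RMA (robust multi-array average) normalization, so that 1 unit is a 2-fold difference. The signal of a probe set also depends on its oligonucleotides, so levels were compared between mice and not between genes.

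Membrane-bound mucins are long glycoproteins anchored in the apical membrane of epithelial cells. Their extracellular part is rich in serine, threonine and proline and densely O-glycosylated, and it forms the glycocalyx that lies between the brush border and the secreted mucus gel. In the gut, Muc3 (the mouse counterpart of human MUC17) and Muc13 belong to the glycocalyx of enterocytes and colonocytes, and Muc1, Muc4 and Muc20 also have cytoplasmic tails or growth-factor-like domains linked to receptor signalling in human and rat cells. Hnf4α is a nuclear receptor that binds DNA as a homodimer at direct repeats of AGGTCA spaced by a single base.

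Promoter sequences are shown because the mutated gene encodes a DNA-binding factor. They are the 250 bases before the RefSeq transcript start (build GRCm38.p6), which were found for 5 members, with 2 starts for Muc13. The Muc3 sequence lies at chr5:137166047-137166296 on the minus strand, that of the second Muc13 start at chr16:33794239-33794488 on the plus strand, and that of Muc4 at chr16:32735636-32735885 on the plus strand. Capitals mark matches to the direct repeat, searched as AGGTCA, any base and then AGGT, or to the HNF4 core CAAAGTCCA, on either strand.
Muc3: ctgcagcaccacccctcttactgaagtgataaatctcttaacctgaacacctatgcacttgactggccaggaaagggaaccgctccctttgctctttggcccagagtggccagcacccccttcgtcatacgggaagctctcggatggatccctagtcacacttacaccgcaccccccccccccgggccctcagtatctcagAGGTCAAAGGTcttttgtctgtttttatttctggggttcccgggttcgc
Muc13: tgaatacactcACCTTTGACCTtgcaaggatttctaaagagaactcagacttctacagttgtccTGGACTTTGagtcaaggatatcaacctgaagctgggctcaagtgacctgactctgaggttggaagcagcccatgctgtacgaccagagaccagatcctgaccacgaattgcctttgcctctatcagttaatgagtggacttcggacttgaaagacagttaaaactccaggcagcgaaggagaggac
Muc4: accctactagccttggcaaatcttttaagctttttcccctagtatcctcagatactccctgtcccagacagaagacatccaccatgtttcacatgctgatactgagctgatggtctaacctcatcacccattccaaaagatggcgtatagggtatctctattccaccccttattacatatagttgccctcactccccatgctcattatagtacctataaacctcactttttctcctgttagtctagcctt

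A match to the direct repeat stood 49 to 39 bases before the start of Muc3, on the strand of the gene. Another stood 239 to 229 bases before the second start of Muc13, on the opposite strand. The HNF4 core stood 186 to 178 bases before the same start, also on the opposite strand. In both genes the second element of the repeat read AGGT followed by other letters than CA, so neither held the full repeat. As searched, with the last 2 bases left free, the repeat was found in 0.149% of 32851 promoters of the same length, and CAAAGTCCA in 0.384%. Neither was found in the windows of Muc1, Muc4 and Muc20 or before the first start of Muc13. The single element AGGTCA, which the direct repeat contains, occurred in 14% of promoters, and among members before Muc3 and before both starts of Muc13. TATAAA, the letters of a TATA box, stood before the starts of Muc1 and Muc4 and in 12.4% of promoters. The letters searched were chosen after the members' promoters had been read, so the shares do not measure how unusual the matches are. A match describes the sequence and not a bound site.

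Hnf4a itself had 10.17, 10.09 and 10.15 as log2 signal in mutant replicates 1, 2 and 3, against 12.23, 12.01 and 11.97 in control replicates 1, 2 and 3 (log2 fold change -1.94, limma adjusted p = 0.000788), with a standard error (SE) of 0.10. The sample labels give mutant replicate 1 as female, but its RNA, with Xist at 5.03 and the Y-linked gene Eif2s3y at 8.08, matched the other mutants, which are male. In the controls Xist lay between 9.94 and 10.96 and Eif2s3y between 2.75 and 3.16, so that sex and genotype cannot be told apart in these arrays. Y-linked probe sets gave signals of 2.56 to 4.01 in the controls, which served as a measured background. The median of 15 smooth muscle markers, relative to the mean of the controls, was, for mutant replicates 1, 2 and 3, -0.30, -3.59 and -0.47 on the log2 scale, and that of 17 fibroblast and matrix markers was -0.29, -3.11 and -0.39. Mutant replicate 2 thus stood apart from the other arrays, and results are also given without it. In whole tissue, fewer cells of a type cannot be told apart from less RNA per cell.

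No membrane-bound mucin passed an adjusted p of 0.05 from limma, where 0.879% of all genes did (0.484% higher and 0.396% lower in mutants), or 0.531% of all probe sets. In the mutants Muc13 and Muc3 had lower signals and Muc4 a higher signal, and for these 3 genes the signals of mutants and controls did not overlap. Groups without overlap were found for 23.3% of all genes, 14.5% with the mutants above and 8.86% with the mutants below. Before adjustment, 1 member was higher and 2 were lower at p of 0.05 or less by limma, which is 3 of 6 against 16.2% of all genes (10% higher and 6.18% lower). SAM, the test the study used, also gave 3 at this p, against 15.5% of all genes. The study's list of changed genes also asked for a difference of at least 2-fold. In these values Muc4 reached it (ratio 2.27), while Muc13 (0.608) and Muc3 (0.813) did not. Over the 6 members the log2 fold changes ran between -0.72 and 1.19 with a median of 0.12, also over the 5 members above the Y-linked background, beside a median of 0.05 over all genes. The study placed Muc4 and Muc13 among genes it picked on these same arrays, so their directions are no independent evidence. For Muc3 the study also used quantitative RT-PCR, and reports less of its RNA in the mutants from early postnatal life.

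**Figure D1:**
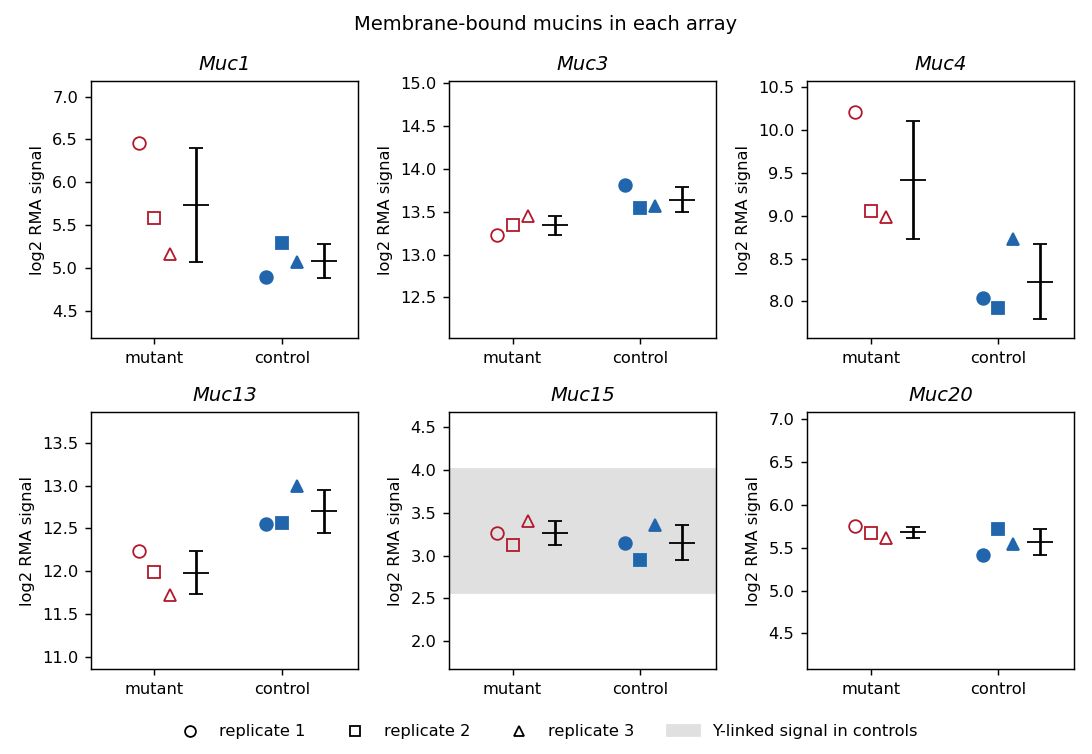
Log2 RMA signal (vertical axes, each spanning 3 log2 units) of the 6 membrane-bound mucins in mutants (open symbols, left) and controls (filled symbols, right), with symbol shape for the replicate, and mean and SD of 3 mice in black. The 3 mutants lie below the controls for Muc3 and Muc13 and above them for Muc4, while Muc15 lies within the grey band of Y-linked signal in controls (2.56 to 4.01).

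Muc13, a membrane mucin of the apical surface of gut epithelial cells with EGF-like domains, had the smallest p of the 6 genes when each was read by its highest probe set. The log2 signal of its probe set 1419387_s_at was 12.24, 11.99 and 11.73 in mutant replicates 1, 2 and 3, against 12.55, 12.56 and 12.99 in control replicates 1, 2 and 3. Every mutant was below every control, and the nearest pair was 0.32 apart. The means were 11.98 ± 0.25 in mutants and 12.70 ± 0.25 in controls (SD, n = 3 each), a log2 fold change of -0.72 with a 95% interval of -1.14 to -0.30, or a ratio of 0.608 (adjusted p = 0.176 from limma). A second probe set of Muc13 of lower signal, 1419386_at, gave 9.89, 9.64 and 9.42 in mutants, against 10.14, 10.35 and 10.80 in controls, a log2 fold change of -0.78 (95% interval -1.25 to -0.31, adjusted p = 0.188 from limma). Both probe sets thus placed the mutants in the same order and below all controls. The fold change was -0.72 without mutant replicate 2, with a limma adjusted p of 0.344.

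Muc3, the large mucin of the intestinal brush border, was among the most intense probe sets of the array, with a mean signal above that of 99.9% of them. The probe set, 1427374_at, had 13.23, 13.34 and 13.45 as log2 signal in mutant replicates 1, 2 and 3, against 13.81, 13.54 and 13.57 in control replicates 1, 2 and 3. The groups did not overlap, but the highest mutant and the lowest control were 0.09 apart, less than the SD of either group (0.11 in mutants and 0.15 in controls). The log2 fold change was -0.30 with a 95% interval of -0.57 to -0.03, a ratio of 0.813 (adjusted p = 0.35 from limma). The highest signals on the 6 arrays lay between 14.40 and 14.55, and the part that the upper end of the scale has in this difference was not tested. RefSeq also lists a gene Muc3a on the same chromosome, and how far the Muc3 probe set reads its transcripts was not tested.

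Muc4, a mucin with EGF-like domains that binds the receptor ErbB2 in the rat, had the largest log2 fold change of the 6 members. The log2 signal of its probe set 1438555_x_at was 10.21, 9.05 and 8.98 in mutant replicates 1, 2 and 3, against 8.03, 7.93 and 8.73 in control replicates 1, 2 and 3. The 3 mutants lay above the 3 controls, with mutant replicate 1 more than 1 log2 unit above the other mutants and mutant replicate 3 near control replicate 3. The means were 9.42 ± 0.69 in mutants and 8.23 ± 0.44 in controls (SD, n = 3 each), a log2 fold change of 1.19 with a 95% interval of 0.31 to 2.06, or a ratio of 2.27 (adjusted p = 0.272 from limma). A second probe set, 1427398_at, gave 9.15, 8.29 and 8.10 in mutants, against 6.95, 6.95 and 7.71 in controls, a log2 fold change of 1.31 (95% interval 0.55 to 2.08, adjusted p = 0.174 from limma). The suffix x marks a probe set with oligonucleotides that may also match other transcripts, and the second carries no such mark. A further probe set of Muc4, 1432119_at, had a mean of 3.16 over the 6 arrays, within the Y-linked background, and its log2 fold change was 0.07. Without mutant replicate 1 the log2 fold change of the first probe set was 0.79, and without mutant replicate 2 it was 1.37.

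Muc1, whose cytoplasmic tail binds β-catenin and other signalling proteins in human cells, was read by 1449199_at and had 6.46, 5.58 and 5.16 as log2 signal in mutant replicates 1, 2 and 3, against 4.90, 5.30 and 5.07 in control replicates 1, 2 and 3. Mutant replicates 1 and 2 were above all controls and mutant replicate 3 was within their range. The spread was wider among the mutants, with an SD of 0.66 in mutants and 0.20 in controls. The log2 fold change was 0.65 with a 95% interval of -0.10 to 1.40 (adjusted p = 0.438 from limma). It was 0.28 without mutant replicate 1 and 0.93 without mutant replicate 3. The groups overlapped, and the log2 fold change of 0.65 was close to the SD of the mutants.

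Muc20, which binds the receptor Met in human cells, was read by 1451786_at and had 5.75, 5.68 and 5.61 as log2 signal in mutant replicates 1, 2 and 3, against 5.42, 5.72 and 5.54 in control replicates 1, 2 and 3. The groups overlapped, and the log2 fold change was 0.12 with a 95% interval of -0.15 to 0.38 (adjusted p = 0.673 from limma). Its second probe set, 1442960_at, gave 0.06, with an interval of -0.30 to 0.41. Muc4 and Muc20 are neighbours on chromosome 16, on opposite strands and with overlapping 3′ ends in the RefSeq annotation. The probe sets of the 2 genes gave different values, 1.19 and 1.31 for those of Muc4 above background and 0.12 and 0.06 for those of Muc20, and the difference between the genes was not tested.

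Muc15, a smaller membrane mucin first described in milk fat globule membranes of cattle, was read by 1426941_at and had log2 signals of 3.27, 3.12 and 3.41 in mutants, against 3.15, 2.94 and 3.35 in controls. All 6 values lay within the range of Y-linked signal in the controls, so neither group was above the measured background and no fold change can be read from them. Of the other members, none had an array within that range in its highest probe set.

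**Figure D2:**
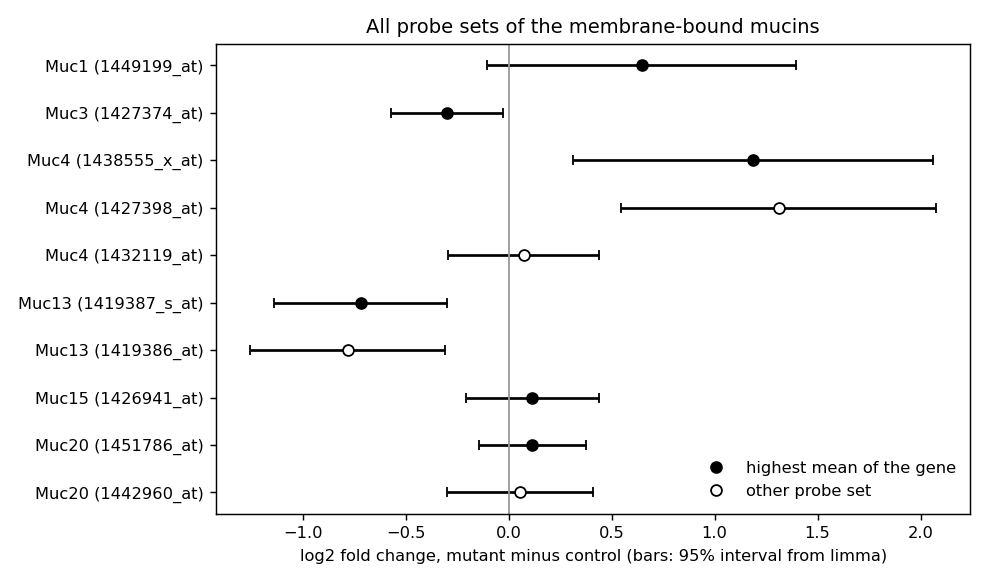
Log2 fold change, mutant minus control (horizontal axis), with its 95% interval from limma for all 10 probe sets of the membrane-bound mucins; filled symbols stand for the probe set with the highest mean of a gene and open symbols for the others. The intervals of Muc3 and of both Muc13 probe sets lie below 0 and those of 2 Muc4 probe sets lie above 0, before any adjustment for the number of probe sets tested.

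The members also differed in how they varied within a group. Mutant replicate 1 had the highest signal of the 3 mutants for Muc1, Muc4, Muc13 and Muc20, and the lowest for Muc3. Among the controls, replicate 3 was highest for Muc4 and Muc13 and, within background, for Muc15. Control replicate 2 was highest for Muc1 and Muc20, and control replicate 1 for Muc3. The pair of mutant replicate 1 and control replicate 3 was lowest within its group for Aqp8, a water channel of surface colonocytes singled out after its values were seen. Aqp8 had 9.09, 11.56 and 11.73 as log2 signal in mutant replicates 1, 2 and 3, against 11.80, 12.29 and 8.32 in control replicates 1, 2 and 3. Slc26a3, the chloride-bicarbonate exchanger of the same cells, also chosen after its values were seen, was likewise lowest in that pair, with 11.59, 12.60 and 12.45 in mutants, against 12.79, 12.81 and 11.24 in controls. The absorptive colonocyte markers did not all share this order: of 8 measured, mutant replicate 1 was the lowest mutant for 6 and control replicate 3 was the lowest control for 4 and the highest for the other 4, namely Car4, Slc9a3, Ceacam1 and Cdhr5. The part of this variation in the differences of the mucins was not tested.

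By Pearson correlation over the 6 arrays, the 5 genes most like Muc4 were Gm16958, Gmppa, Cd14, Cyp20a1 and Atl3, with r between 0.9893 and 0.9984. Gm16958 had its signals, 2.69 to 2.83, within the Y-linked background. Cd14, the co-receptor for bacterial lipopolysaccharide, had 9.19, 8.77 and 8.77 in mutants, against 8.22, 8.25 and 8.58 in controls, a log2 fold change of 0.56 (SE 0.16, limma adjusted p = 0.236). The 5 genes most like Muc13 were Rps4x, Cyp2d34, Phc2, Bcl7b and Atxn7, with r between 0.9861 and 0.9963. Cyp2d34, a cytochrome P450, had the widest range of these, with 7.19, 6.14 and 4.95 in mutants, against 8.58, 8.88 and 10.06 in controls, a log2 fold change of -3.08 (SE 0.61, limma adjusted p = 0.105). These correlations rest on 6 arrays that share the difference between the groups and were picked from all genes, so they are given as a description.

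Among the other mucin-like genes of the cell surface, 7 of 8 listed were measured and none passed the limma test. Before adjustment (p of 0.05 or less), 2 were higher and 1 was lower by limma, and SAM gave 3. The shares over all genes, also for the lists below, were 16.2% by limma, 15.5% by SAM and 23.3% for groups without overlap. Muc16, a very large membrane mucin of mesothelium and wet epithelia, had the widest differences, with 8.48, 10.03 and 9.94 as log2 signal in mutant replicates 1, 2 and 3, against 7.05, 8.55 and 4.81 in control replicates 1, 2 and 3. Mutant replicate 1 lay below control replicate 2, and the log2 fold change was 2.68 (SE 0.92, limma adjusted p = 0.307). Relative to the control mean, the median of 5 mesothelium markers was -0.21, 1.02 and 0.43 in mutant replicates 1, 2 and 3. In control replicates 1, 2 and 3 it was 0.14, -0.08 and -0.11. The part of these markers in the Muc16 values was not tested. Cdhr2, a mucin-like protocadherin that links the tips of microvilli, had 10.02, 10.98 and 11.01 in mutants, against 11.91, 12.07 and 11.56 in controls. All mutants were below all controls for Cdhr2 (log2 fold change -1.18, SE 0.28, limma adjusted p = 0.17), and its partner Cdhr5 had -0.25 with the groups apart in the same direction. Parm1, a mucin-like androgen-responsive protein, was above the controls in every mutant, with a log2 fold change of 0.48 (SE 0.14, limma adjusted p = 0.227). Emcn, the endothelial mucin endomucin, was lowest in mutant replicate 2 (4.25, with 6.24 and 5.95 in the other mutants), as were the muscle and matrix markers. Podxl had a log2 fold change of -0.43, with the mutants below the controls by a gap of 0.004, and Cd164 had -0.03 with overlap.

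Of 5 listed secreted mucins, 3 were measured, none passed the test and none reached an unadjusted p of 0.05 by limma or SAM. Muc2, the gel-forming mucin of goblet cells, had 14.42, 13.92 and 13.72 as log2 signal in mutant replicates 1, 2 and 3, against 14.16, 13.96 and 14.42 in control replicates 1, 2 and 3. The groups overlapped (log2 fold change -0.16, SE 0.20, limma adjusted p = 0.759), with signals near the highest of the arrays. By quantitative RT-PCR the study reports a significant decline of Muc2 RNA in older mutants, which these array values did not show. Muc5ac and Muc5b, gel-forming mucins best known from stomach and airway, had log2 fold changes of 0.12 and 0.10. Over 8 goblet cell markers, the median relative to the controls was 0.03, -0.08 and -0.23 in mutant replicates 1, 2 and 3, against -0.03 to 0.11 in controls.

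Among proteases that shed or cleave membrane mucins, 6 of 7 were measured and none passed the test, with 1 higher before adjustment (p of 0.05 or less) by limma and by SAM. Adam10, a metalloprotease of the cell surface, had 10.42, 10.32 and 10.31 in mutants, against 10.00, 9.90 and 9.83 in controls, so that every mutant was above every control by at least 0.30 log2 units (log2 fold change 0.44, SE 0.09, limma adjusted p = 0.132). Adam9 was also above the controls in all mutants, at 0.42 (SE 0.18, limma adjusted p = 0.389). Of 18 receptors, adaptors and lectins that bind membrane mucins, none passed the test. Before adjustment (p of 0.05 or less) 3 were higher and 1 was lower by limma, against 16.2% of all genes. SAM gave 3 in all, against 15.5% of all genes. Erbb3, the partner of ErbB2, had the largest log2 fold change of these, -0.44 (SE 0.13, limma adjusted p = 0.239), followed by the adaptor Grb2 with 0.41 (SE 0.17, limma adjusted p = 0.377). Of 24 measured cytokine receptors and transcription factors linked to mucin genes, Hnf4a fell and no other gene passed the test.

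**Figure D3:**
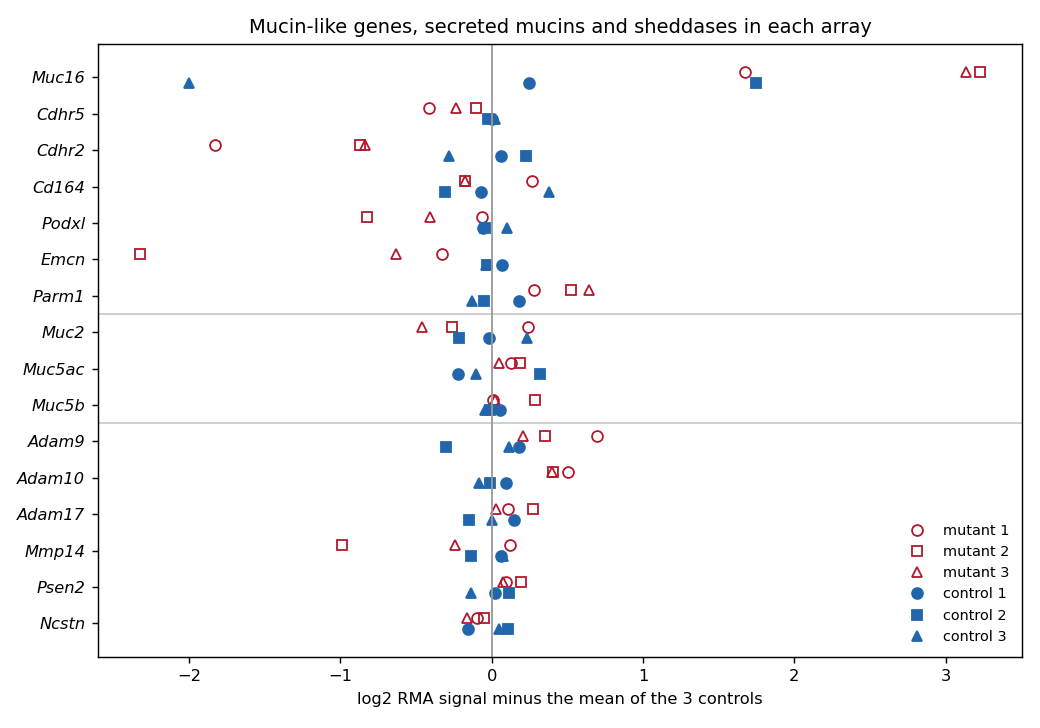
Log2 RMA signal minus the mean of the 3 controls (horizontal axis) for other membrane mucins and mucin-like genes, secreted mucins and sheddases, from top to bottom, in each mutant (open red) and control (filled blue), with symbol shape for the replicate. Muc16 spreads most, Cdhr2 lies to the left and Adam10 to the right of the controls in all 3 mutants, and Muc2 overlaps.

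Markers of other cell types were read beside the mucins. For 12 gut epithelium markers the median of mutant replicates 1, 2 and 3 was -0.03, 0.19 and 0.17 relative to the controls. Of these markers 3 were higher and 1 was lower before adjustment (p of 0.05 or less) by limma, against 16.2% of all genes. None passed the adjusted test, and the largest log2 fold changes were those of the keratins Krt18 (0.75) and Krt20 (-0.49). Among goblet cell markers, where also none passed, they were those of Clca1 (-0.94) and Spdef (-0.43). Of 8 absorptive colonocyte markers, Car4, a membrane carbonic anhydrase, fell (log2 fold change -2.71), while the list as a whole had medians of -0.55, 0.18 and 0.14 across mutant replicates 1, 2 and 3. The median of 11 markers of stratified squamous epithelium was 0.01, 0.21 and 0.02 in the mutants, and none passed the test. Krt13, a keratin of stratified mucosa, had 4.93, 5.13 and 5.01 in mutants, against 3.89, 4.40 and 3.89 in controls. All mutants were above all controls for Krt13 (log2 fold change 0.96, SE 0.16, limma adjusted p = 0.0684), but control replicates 1 and 3 lay within the Y-linked background. Dsc3 followed with a log2 fold change of 0.36. The basal keratins Krt5 and Krt14, whose groups overlapped, had log2 fold changes of -0.07 and 0.14. Leukocyte markers (13 genes) had medians of -0.43, -1.05 and -0.16, endothelial markers (8 genes) of -0.28, -1.62 and -0.43, and pancreas markers (5 genes) of 0.01, 0.07 and 0.09 across mutant replicates 1, 2 and 3. No gene of these lists passed the test, nor did any of the smooth muscle, matrix or mesothelium lists. Their largest log2 fold changes were 1.28 for Cd68 and -1.25 for Ptprc (leukocytes), -1.09 for Emcn and -0.98 for Tek (endothelium), and 0.59 for Cela1 and 0.13 for Cpa1 (pancreas). They were -1.89 for Synpo2 and -1.75 for Cnn1 (smooth muscle), -1.91 for Dpt and -1.59 for Pdgfra (matrix), and 0.99 for Lrrn4 and 0.63 for Upk3b (mesothelium). The part of these cell types in the mucin values was not tested, and with mutant replicate 2 left out Muc1, Muc3, Muc4 and Muc13 had log2 fold changes of 0.72, -0.30, 1.37 and -0.72.

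**Figure D4:**
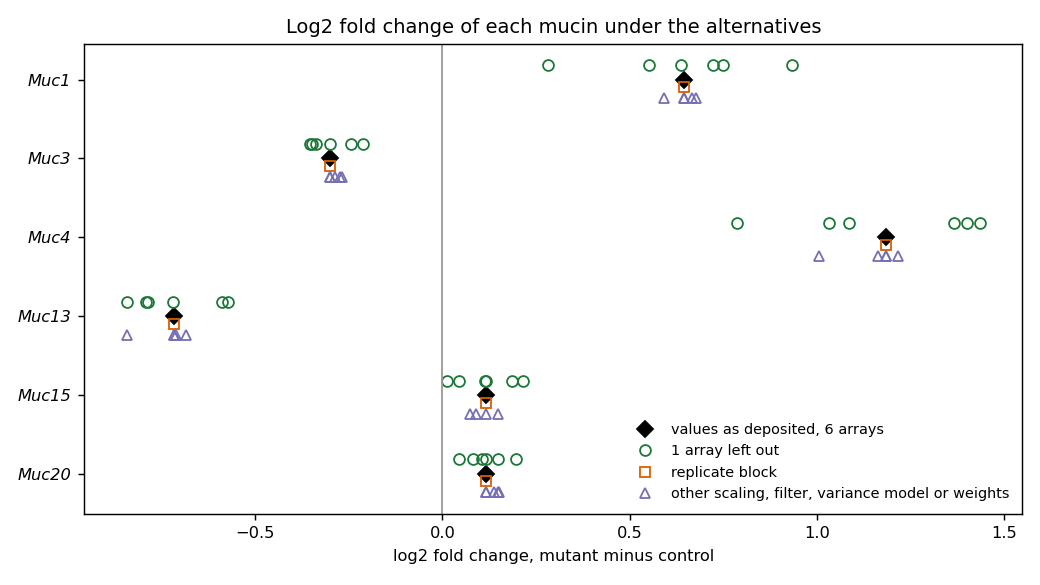
Log2 fold change, mutant minus control (horizontal axis), of each membrane-bound mucin with the deposited values of all arrays (black), with 1 array left out (green), with the replicate number as a block (orange) and with other scalings, filters, variance models or weights (purple). None of the 5 members above background changed sign, Muc13 stayed between -0.84 and -0.57, and Muc4 spread from 0.79 to 1.44.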

How the data were processed

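Total RNA was extracted from the proximal colon of 3 Hnf4α mutant and 3 control mice and hybridised to Affymetrix whole-genome mouse expression arrays, with 1 array for each mouse. The authors compiled the 6 arrays by RMA (version not given in the sources used here), and the deposited values are log2 signals with array medians between 5.43 and 5.53. RMA draws the arrays to a common distribution, so values are relative to the other RNA on an array. They were used as deposited, and no correlation between arrays was below 0.961.

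Of 45101 probe sets, 64 control probe sets were left out. Of the 45037 tested, 34945 had 1 gene symbol in the platform annotation, 932 several and 9160 none. Differences were mutant minus control, tested over all probe sets with limma 3.58.1 (R 4.3.3) and adjusted by the Benjamini-Hochberg method, with no filter on low values. SAM, which the study names, was run with all 20 label permutations pooled over probe sets, and the fits were tested on simulated data. An exact two-sided permutation test of 3 mice against 3 cannot go below 0.1, which Muc3, Muc4 and Muc13 reached. The number of arrays limits the precision.

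The members and gene lists were chosen with earlier results of these data known. All members were named, as were listed genes that passed the test, the 2 largest log2 fold changes of a list without such genes, and the measured mucins. Outside this rule, the label checks, the genes most like Muc4 and Muc13, Krt5, Krt14 and some absorptive colonocyte markers were also named. Alternatives were quantile normalization, median centring, a mean log2 filter of 5, another variance model, array weights, a replicate block, SAM, other probe sets and leaving out each array. Muc6, Muc19 and Muc21 were not analysed here, and some other listed genes are not reported here. Promoters were read from RefSeq (GRCm38.p6), for 5 of 6 members. Figures were drawn with matplotlib 3.10.9.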

Additional observations from a re-analysis of the deposited data

How the results depend on the processing

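The 5 members above the Y-linked background kept their direction under every alternative run, and by limma no member passed an adjusted p of 0.05 under any of them. The lowest adjusted p was 0.0877, for Muc13 with array weights (log2 fold change -0.84), where 599 probe sets passed in place of 239. Its adjusted p ranged up to 0.4 over the alternatives. With SAM, a permutation test, before adjustment (p of 0.05 or less), the count of members called became 3, with Muc3 at -0.30 (p = 0.0417), Muc4 at 1.19 (p = 0.0177) and Muc13 at -0.72 (p = 0.008). Limma before adjustment also called 3. The SAM p adjusted by Benjamini-Hochberg was 0.388 for Muc3, 0.312 for Muc4 and 0.244 for Muc13, so the count changed with the threshold. Without 1 array, the log2 fold change ran from 0.28 to 0.93 for Muc1, from -0.35 to -0.21 for Muc3, from 0.79 to 1.44 for Muc4, from -0.84 to -0.57 for Muc13, from 0.04 to 0.20 for Muc20 and, within background, from 0.01 to 0.22 for Muc15, with 0 members called in each case. The low end for Muc1 and Muc4 came without mutant replicate 1. The filter at a mean log2 signal of 5 left out Muc15. With the replicate block, the fold changes were as without it (Muc13 -0.72, adjusted p = 0.242) and 62 probe sets passed. Leaving out control replicates 1, 2 and 3 in turn gave 39, 336 and 92 probe sets, and leaving out mutant replicates 1, 2 and 3 gave 169, 147 and 52. Before adjustment SAM called 5543 of 45037 probe sets. The deviations of arrays with the same replicate number correlated at -0.02, 0.25 and -0.15 for numbers 1, 2 and 3, and mutant replicate 1 correlated best with control replicate 3 (0.38). Deviations from a group mean cancel within the group, so correlations of both signs must occur and these values cannot decide whether the numbers pair the mice. The main fit was unpaired, and the replicate block is given beside it. Groups of 3, signals near the upper end of the scale (Muc3) and signals within background (Muc15) limit what these arrays can show.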
